A study of Homo sapiens with 7 samples.

Results

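The H3K36me3 library of HCT116 cells, a human colorectal carcinoma line, was examined over gene bodies. All 40010 intervals that the authors deposited for this library were used, of 240889 intervals in the 6 lists of the series, and they were laid on 20162 protein-coding gene bodies. Chromatin of 200000 crosslinked cells per well was sheared for 6 min in 100 µl with PIXUL, an ultrasound instrument for 96-well plates. Of 7 antibodies, each was given 1 well and 1 library (H3K4me1, H3K4me3, H3K9Ac, H3K27Ac, H3K27me3, H3K36me3 and CTCF). H3K27Ac was not analysed here. With 1 library per antibody there was no replicate, so no difference given here has a replicate error or a test. The 95% Wilson bounds given with shares describe counting error and nothing else.

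H3K36me3 is the trimethylated form of lysine 36 on histone H3. In mammals it is placed by SETD2, an enzyme that travels with the phosphorylated tail of elongating RNA polymerase II, and it accumulates over the transcribed part of genes rather than at promoters. H3K4me3 marks active and poised transcription start sites (TSSs), whereas H3K27me3 is the mark of Polycomb repression. An interval is a stretch of the genome in which the peak caller found enrichment, and its fold enrichment is the signal over the local background. A gene body here is the annotated span of a gene, and its cover is the percent of its bases that lie inside intervals.

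Exons are shown first because cover was compared on the upstream and downstream side of single exons. For the first set, genes of at least 20 kb were ranked by cover, and from each of the first 4 the coding exon of 80 to 160 bases nearest the middle of the body is printed (hg19, transcript sense, 5′ to 3′). Capitals mark the exon and lower case the 20 intronic bases on each side. The CAD exon is exon 16 of 44 at chr2:27454336-27454448 on the plus strand, the FAT1 exon is exon 7 of 27 at chr4:187554838-187554977 on the minus strand, the LXN exon is exon 4 of 6 at chr3:158386785-158386921 on the minus strand, and the HNRNPC exon is exon 6 of 9 at chr14:21681119-21681276 on the minus strand.
CAD: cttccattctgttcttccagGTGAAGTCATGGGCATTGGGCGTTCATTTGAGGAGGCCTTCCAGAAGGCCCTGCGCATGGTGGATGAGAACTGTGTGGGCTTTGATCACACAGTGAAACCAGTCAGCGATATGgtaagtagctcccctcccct
FAT1: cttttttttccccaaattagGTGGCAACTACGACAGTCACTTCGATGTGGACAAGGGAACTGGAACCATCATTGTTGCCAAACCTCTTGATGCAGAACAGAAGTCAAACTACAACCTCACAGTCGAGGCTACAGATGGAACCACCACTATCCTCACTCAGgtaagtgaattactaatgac
LXN: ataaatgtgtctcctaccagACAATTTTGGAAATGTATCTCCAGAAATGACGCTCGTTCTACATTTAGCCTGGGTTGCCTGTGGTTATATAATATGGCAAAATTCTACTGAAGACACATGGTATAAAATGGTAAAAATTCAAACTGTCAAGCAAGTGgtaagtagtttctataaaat
HNRNPC: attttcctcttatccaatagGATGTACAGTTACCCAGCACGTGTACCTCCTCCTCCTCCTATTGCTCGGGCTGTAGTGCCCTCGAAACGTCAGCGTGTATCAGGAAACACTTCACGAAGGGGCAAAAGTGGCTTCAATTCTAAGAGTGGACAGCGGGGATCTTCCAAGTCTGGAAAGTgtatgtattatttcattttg
Each of these 4 exons lay inside an interval that also held the base 1500 bp before and the base 1000 bp after the exon centre. Relative to the exon start, the interval began at −17870 bp in CAD, −91759 bp in FAT1, −3365 bp in LXN and −55558 bp in HNRNPC.

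The second set shows the other arrangement. These are coding exons of 80 to 160 bases between introns of at least 10 kb, in genes that overlap no other coding gene, where the base 1500 bp before the exon centre was uncovered and the base 1000 bp after it was covered. They are the 4 genes with the highest fold enrichment and were chosen after their values were seen. The exons are exon 2 of 30 of ATP11A (chr13:113439449-113439571, plus strand), exon 13 of 19 of VAC14 (chr16:70778326-70778482, minus strand), exon 8 of 17 of PDE4B (chr1:66798191-66798303, plus strand) and exon 2 of 12 of SWAP70 (chr11:9715693-9715833, plus strand).
ATP11A: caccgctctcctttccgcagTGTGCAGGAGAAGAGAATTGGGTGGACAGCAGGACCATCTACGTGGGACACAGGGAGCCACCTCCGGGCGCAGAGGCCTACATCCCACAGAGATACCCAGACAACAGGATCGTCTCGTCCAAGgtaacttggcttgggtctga
VAC14: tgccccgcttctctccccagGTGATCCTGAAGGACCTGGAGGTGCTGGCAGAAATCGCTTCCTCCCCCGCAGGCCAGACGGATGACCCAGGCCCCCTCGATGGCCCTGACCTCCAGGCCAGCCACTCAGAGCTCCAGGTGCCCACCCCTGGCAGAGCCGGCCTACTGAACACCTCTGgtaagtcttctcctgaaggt
PDE4B: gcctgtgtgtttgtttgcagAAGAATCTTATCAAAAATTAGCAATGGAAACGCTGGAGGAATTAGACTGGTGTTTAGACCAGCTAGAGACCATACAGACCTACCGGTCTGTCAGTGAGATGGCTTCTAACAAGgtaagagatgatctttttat
SWAP70: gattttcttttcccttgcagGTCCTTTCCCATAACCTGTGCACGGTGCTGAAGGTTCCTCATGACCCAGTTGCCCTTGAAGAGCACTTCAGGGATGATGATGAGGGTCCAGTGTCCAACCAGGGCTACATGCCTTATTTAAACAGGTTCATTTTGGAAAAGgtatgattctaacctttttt
In ATP11A, which encodes a phospholipid flippase, an interval of 5091 bp with a fold enrichment of 6.22 began 551 bp after the exon start. The intron before this exon is 94679 bp long and the one after it 19699 bp. The interval of SWAP70, a gene for a guanine nucleotide exchange factor, began 530 bp after the exon start and measured 1377 bp. In PDE4B, a cyclic AMP phosphodiesterase gene, the interval began 1022 bp after the exon start and ran for 8314 bp. In VAC14, whose product is the scaffold of a phosphoinositide kinase complex, it began at −1222 bp from the exon start and measured 6868 bp. All 8 exons were bordered by the ag and gt dinucleotides of regular splice sites.

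The 40010 intervals covered 205 Mb, or 6.61% of the genome. They were mostly narrow: the median width was 2094.5 bp (25th to 75th percentile 958 to 5421 bp) and the widest interval measured 162381 bp. A small number of wide intervals carried much of the length. The 2103 intervals of at least 20 kb, 5.26% of all intervals, held 34.2% of the covered bases. The widest lay over MDN1, a ribosome assembly ATPase gene, at chr6:90351247-90513627. It was followed by 147824 bp over the protocadherin gene FAT1, 136099 bp over TRRAP, a scaffold of histone acetyltransferase complexes, 129736 bp over the ubiquitin ligase gene UBR4, and 129681 bp over NUP98 (with CHRNA10). Intervals of high fold enrichment were wide: the median width was 925 bp in the 4001 intervals of lowest and 10972 bp in the 4001 of highest fold enrichment. Both values come from the same pileup and are not independent.

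Protein-coding bodies contained 93.1% of the interval length, although they make up 42.2% of the genome. Of these bodies 14.6% was covered, against 0.548% of the sequence in which no gene is annotated. Sequence annotated only to long non-coding RNA (lncRNA) genes was covered to 1.38%. Of the intervals, 36894 touched a protein-coding body (92.2%, 95% Wilson interval 91.9 to 92.5%) and 33338 lay wholly inside such bodies (83.3%). The 3116 intervals outside coding bodies were narrower (median 1231.5 bp against 2203 bp), and 1078 of them (34.6%) were within 10 kb of one.

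At least 1 interval was present in 11346 of the 20162 genes (56.3%). At least 10% of the body was covered in 9301 genes (46.1%), at least 50% in 5128 (25.4%) and at least 90% in 986 (4.89%, 95% Wilson interval 4.60 to 5.20%). Among genes with an interval the median cover was 44.5% (25th to 75th percentile 16.5 to 74.2%), and 4605 of them had a single interval. ChIP-seq carries no strand, and 7008 coding genes overlap another coding gene, so an interval there cannot be given to 1 of them. Without these genes, 6425 genes had an interval and 3018 were covered over at least 50% of the body. The list is permissive: with the 4930 intervals past a q-value of 1e-3 and a fold enrichment of 2, 5049 genes had an interval and 2663 reached 50%.

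Cover depended on the length of the body. Of genes of 10 to 50 kb, 36.1% (95% Wilson interval 35.0 to 37.1%) were covered over at least 50% of the body, against 22.5% (21.4 to 23.6%) of genes under 10 kb, 18.9% (17.8 to 19.9%) of genes of 50 to 200 kb and 1.53% (1.02 to 2.29%) of genes of 200 kb or more. The order was different for the presence of any interval. This share was 37.5% under 10 kb, 63.1% at 10 to 50 kb, 67.2% at 50 to 200 kb and 46.6% at 200 kb or more. Long genes therefore often held intervals that filled only a small part of them: in the longest class 701 genes held an interval, and 23 were covered over at least 50%.

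The same ranking by length was seen within genes that have an H3K4me3 interval within 1000 bp of the canonical TSS. Their median cover was 43.2% under 10 kb, 54.1% at 10 to 50 kb, 23.1% at 50 to 200 kb and 1.58% at 200 kb or more. In genes without H3K4me3 at the TSS the median was 0% in all 4 classes. Mean fold enrichment over the covered bases fell with length, from a median of 3.61 under 10 kb to 2.99 at 200 kb or more. Sequencing depth cannot be read from the deposited lists, and its part in these length differences was not tested.

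From the 5′ to the 3′ end, cover rose. With each body cut into 3 equal parts and averaged over all genes, it was 17.4% in the 5′ part, 27.6% in the middle part and 32.1% in the 3′ part. Of the 11346 genes with an interval, 8611 had more cover in the 3′ part than in the 5′ part (75.9%, 95% Wilson interval 75.1 to 76.7%), 2418 had less, and 317 had the same. The shape changed with length. In genes of 10 to 50 kb, cover climbed from 3.48% in the first of 20 equal bins to 30.9% in the fourth and then stayed between 32.7 and 42.3%. In genes of 50 to 200 kb it was 18.8% in the second bin and 32.6% in the last. Genes of 200 kb or more had 4.33% in the 5′ part, 3.85% in the middle part and 6.90% in the 3′ part, and 59.5% of those with an interval (55.8 to 63.1%) had more in the 3′ part than in the 5′ part.

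**Figure D1:**
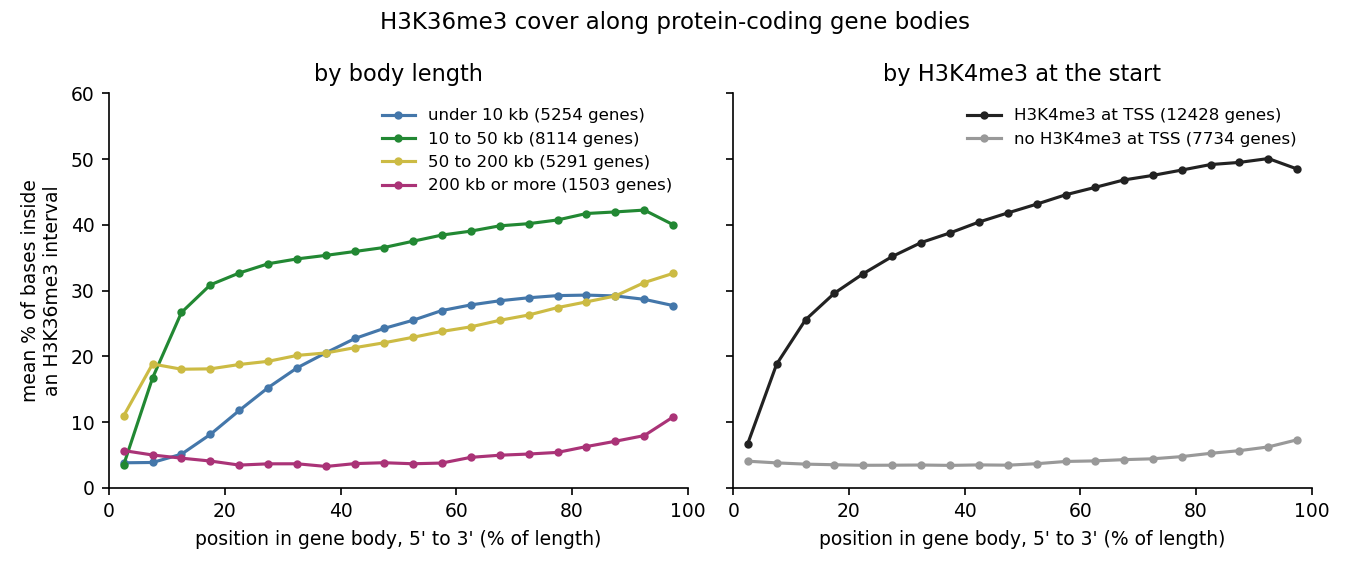
Mean percent of bases inside an H3K36me3 interval (vertical axis) in 20 equal bins from the 5′ to the 3′ end of the body (horizontal axis, percent of length), by body length on the left and by H3K4me3 at the TSS on the right. Genes of 10 to 50 kb reach the highest level (42.3%), genes of 200 kb or more lie between 3.25 and 10.8%, and genes with H3K4me3 rise from 6.70% in the first bin to 50.1% in the last bin but one.

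Cover seldom included the annotated 5′ end of the gene, which can lie upstream of the canonical TSS. Cover of the canonical TSS itself was not counted. In the 2797 genes of at least 20 kb covered over at least 50%, the first covered base lay a median of 2123 bp from the 5′ end of the gene (25th to 75th percentile 1590 to 3370 bp). The 5′ end was covered in 56 of them (2.002%, 95% Wilson interval 1.55 to 2.59%). The 3′ end was covered in 2005 (71.7%, 70.0 to 73.3%). In genes with cover of 10 to 50%, the first covered base was a median of 6934 bp into the gene and the 3′ end was covered in 40.8% (39.0 to 42.6%).

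The beginning of cover was close to the end of the promoter mark. In 2737 of those genes with an H3K4me3 interval at the TSS, the H3K4me3 interval ended a median of 1347 bp beyond the canonical TSS. The first H3K36me3 interval began a median of 502 bp beyond this edge (25th to 75th percentile 76 to 1326 bp) and overlapped the H3K4me3 interval in 570 genes (20.8%, 95% Wilson interval 19.3 to 22.4%). FAT1 is one of the genes with such an overlap. Counted from its annotated 5′ end, its H3K4me3 interval ended at 4.40 kb and its H3K36me3 interval began at 1.14 kb. On the same scale its first canonical exon began at 2.87 kb.

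Beyond the 3′ end the intervals ran on for a few kilobases. At the 827 genes of at least 20 kb that were covered over at least 50% and had no other coding gene within 20 kb downstream, 72.6% of the last kilobase of the body was covered, then 56.7% of the first kilobase after it, 35.8% of the next, 10.01% of the kilobase starting at 4 kb and 4.50% of that starting at 8 kb. At the 1056 such genes with no coding gene within 20 kb upstream, the first kilobase of the body was covered to 1.46%, the next to 20.1%, the third to 58.0% and the fourth to 69.1%. Upstream of these starts no kilobase exceeded 2.51%.

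**Figure D2:**
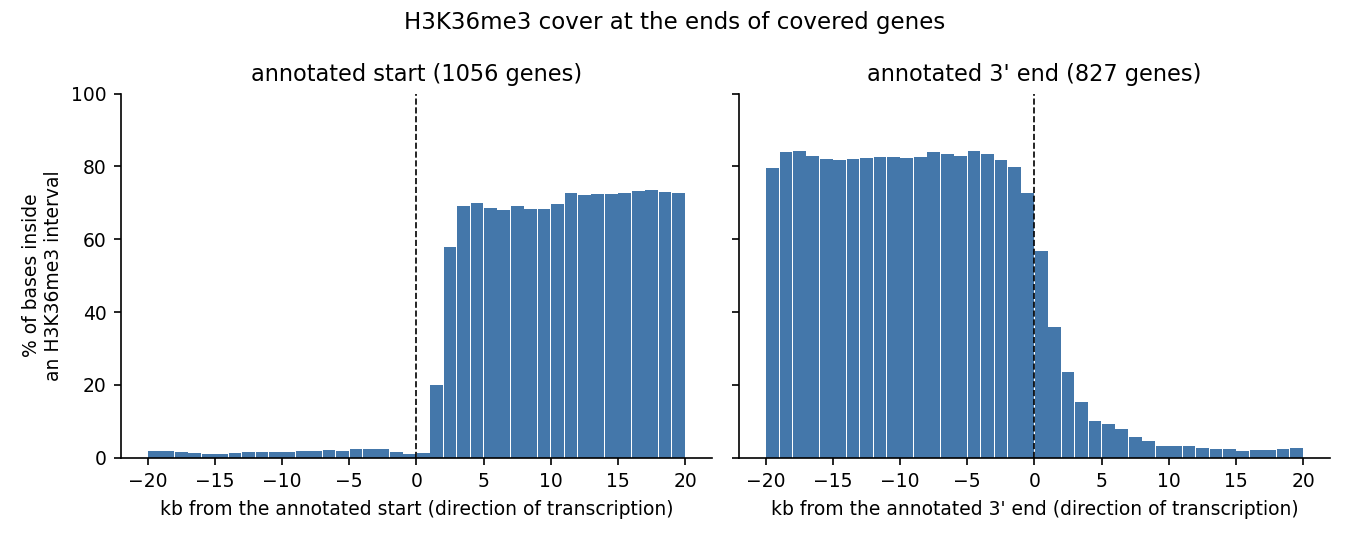
Percent of bases inside an H3K36me3 interval (vertical axis) in 1-kb bins around the annotated start (left, 1056 genes) and 3′ end (right, 827 genes) of genes of at least 20 kb covered over at least 50%, with distance in kb along the direction of transcription on the horizontal axis. Cover goes from 1.46 to 69.1% within the first 4 bins after the start and declines from 72.6% before the 3′ end to 10.01% 4 kb after it.

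Exons were covered more than introns. Over the canonical transcripts of 19881 genes, 35.1% of exonic bases and 15.2% of intronic bases were inside an interval, a ratio of 2.31. In the genes covered over at least 50% the values were 82.5% and 75.6%. In genes with cover of 10 to 50% they were 52.5% and 27.6%, and there 3186 of 4040 genes had higher cover in exons (78.9%, 95% Wilson interval 77.6 to 80.1%). This contrast does not hold position along the gene constant.

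Position along the transcript was examined exon by exon. In 5460 transcripts of at least 8 exons, from genes with cover of at least 10%, 3.40% of the bases of exon 1 were covered, 47.3% of exon 2, 68.2% of exon 3 and 78.8% of exon 5. The exon before the last had 82.2% and the last exon 68.1%. Among introns, the first had 17.4% of its bases covered, the second 39.3%, the fifth 54.7% and the last 59.1%. Counted per intron rather than per base, mean cover of the last intron was 80.7%. By coding status, 4.81% of 5′ UTR bases, 37.8% of coding bases and 35.9% of 3′ UTR bases lay inside an interval.

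Exons that stand alone between long introns were examined for the position of the intervals. At 6674 internal exons with introns of at least 10 kb on both sides, in 3068 genes, the exon centre was covered in 10.3% (95% Wilson interval 9.63 to 11.1%). The base 1500 bp before the centre, towards the 5′ end of the gene, was covered in 3.52% (3.10 to 3.99%) and the base 1000 bp after it in 17.1% (16.2 to 18.03%), a ratio of 4.86. Both distances were chosen after the profile had been seen. Cover was 8.42% at 5000 bp after the exon and was 3.73% at 5000 bp before it. Thus 930 exons were covered on the downstream side and not on the upstream side, whereas 23 showed the opposite, 212 were covered on both sides and 5509 on neither.

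At 947 of these exons an interval covered the base 1000 bp after the centre without reaching the base 1500 bp before it. By this choice such an interval had to begin between those bases, so its distance to the exon start, with a median of 179 bp (25th to 75th percentile −128 to 488 bp), is a description of the chosen intervals and carries no weight of its own. In the other lists the same ratio was 0.749 for H3K4me1, 0.848 for H3K9Ac, 0.991 for H3K27me3 and 1.26 for CTCF, and H3K4me3 covered at most 0.4495% of the exons at any distance. The step was smaller among stronger intervals. Past a q-value of 1e-3 and a fold enrichment of 2, H3K36me3 covered 1.21% (0.98 to 1.51%) of exons before and 2.16% (1.84 to 2.53%) after, a ratio of 1.78.

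Nearly all exons with cover belonged to genes with a marked promoter. Where the gene had H3K4me3 at the TSS (4216 exons), cover was 5.36% before and 26.4% after the exon. In the other genes (2458 exons) it was 0.366% and 1.22%. Averaged over all 6674 exons, GC content in windows of 500 bp was 40.5% at 1500 bp before and 40.2% at 1000 bp after the exon centre, and its part in the difference in cover was not tested. With exons of genes of 200 kb or more alone, cover was 1.28% before and 9.02% after.

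**Figure D3:**
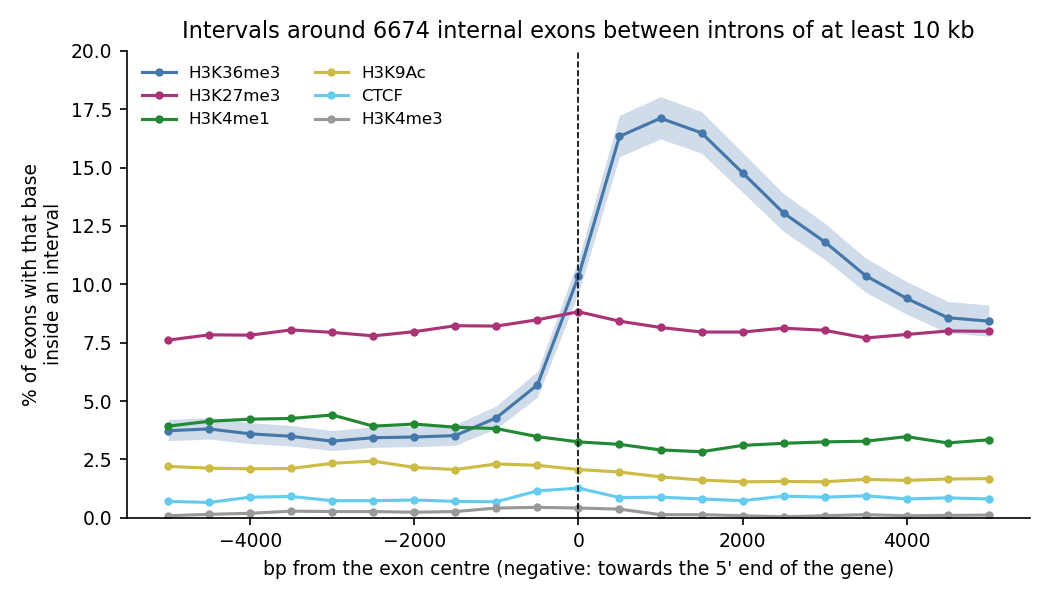
Percent of 6674 internal exons between introns of at least 10 kb (vertical axis) for which the base at a given distance from the exon centre (horizontal axis, bp) lies inside an interval of each list; the band is the 95% Wilson interval for H3K36me3. H3K36me3 stands at 3.52% 1500 bp before the centre and at 17.1% 1000 bp after it, while H3K27me3 lies between 7.61 and 8.83% and H3K4me1 between 2.83 and 4.41% throughout.

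In long genes, sequence shortly after exon starts held much of the cover. The 701 genes of 200 kb or more with an interval have 34.9 Mb within 3 kb downstream of an exon start, 14.3% of their sequence. This sequence was covered to 30.8% and contained 52.2% of the covered bases, while the remaining sequence was covered to 4.71%. All exons of the canonical transcripts were counted, with closely spaced exons under wide intervals among them. Position along the gene was not held constant.

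Genes of at least 20 kb with the highest cover were filled by 1 interval each. CAD, which encodes the trifunctional enzyme that starts pyrimidine synthesis, was covered over 100% of its 26.6 kb by an interval at chr2:27436466-27468590 with a fold enrichment of 4.35. That interval began at −3.77 kb from the CAD start, where an H3K4me3 interval ended that reached from −6.45 to −3.69 kb. A further H3K4me3 interval at the start of CAD itself, from −0.198 to 1.09 kb with a fold enrichment of 24.1, lay wholly inside the H3K36me3 interval. FAT1 followed with 99.2% of 138.9 kb at a fold enrichment of 5.36. LXN reached 98.7% of 26.8 kb, but this body overlaps GFM1, has no H3K4me3 at its canonical TSS and cannot be separated from GFM1. HNRNPC, an hnRNP gene, had 98.6% of 60.4 kb covered, LRPPRC, a regulator of mitochondrial mRNA, 98.6% of 110 kb, and the importin gene IPO7 98.5% of 63.5 kb. PIEZO1, a mechanosensitive channel gene, KITLG, the gene of the KIT ligand, NUP98, a nucleoporin gene, and HEATR1, a ribosome biogenesis gene, had between 98.2 and 98.3%. PIEZO1 overlaps CTU2, NUP98 overlaps CHRNA10 and PGAP2, and HEATR1 overlaps LGALS8, so their intervals cannot be given to 1 gene. In 9 of the 10 genes an H3K4me3 interval lay at the TSS, near the 95.05% of all genes covered over at least 50%.

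By covered length, ACACA led with 255 kb in 8 intervals, 78.6% of a body of 325 kb. ACACA encodes acetyl-CoA carboxylase, the enzyme that commits acetyl-CoA to fatty acid synthesis. Its body overlaps the coding gene C17orf78. No H3K36me3 interval lay in the first 52.8 kb of the gene. An H3K4me3 interval with a fold enrichment of 22.5 lay from 50.04 to 52.2 kb into the gene, and cover began just beyond it. Another H3K4me3 interval, with a fold enrichment of 19.8, lay at the annotated start and was followed by no H3K36me3 interval inside this gap.

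PALLD, an actin-associated protein gene without H3K4me3 at its canonical TSS, came next with 239 kb in 40 intervals (55.4% of 431 kb), then the protocadherin gene PCDH7 with 236 kb in 56 intervals (55.3% of 426 kb) and the cytolinker gene DST with 234 kb in 35 intervals (47.1% of 497 kb). PALLD overlaps the coding genes CBR4 and DDX60L. DST had 21.3% of its 5′ part covered and 86.9% of its 3′ part. PCDH7 has only 3 exons and also lacked H3K4me3 at its canonical TSS. STK39, a kinase gene, had 227 kb covered in 27 intervals, and MTHFD1L, a gene of mitochondrial folate metabolism, 201 kb in 16. TCF7L2, the transcription factor at the end of the Wnt pathway, had 210 kb covered in 4 intervals, 96.5% of its 217 kb. One of its gaps, from 121 to 124 kb, held an H3K4me3 interval with a fold enrichment of 2.78.

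**Figure D4:**
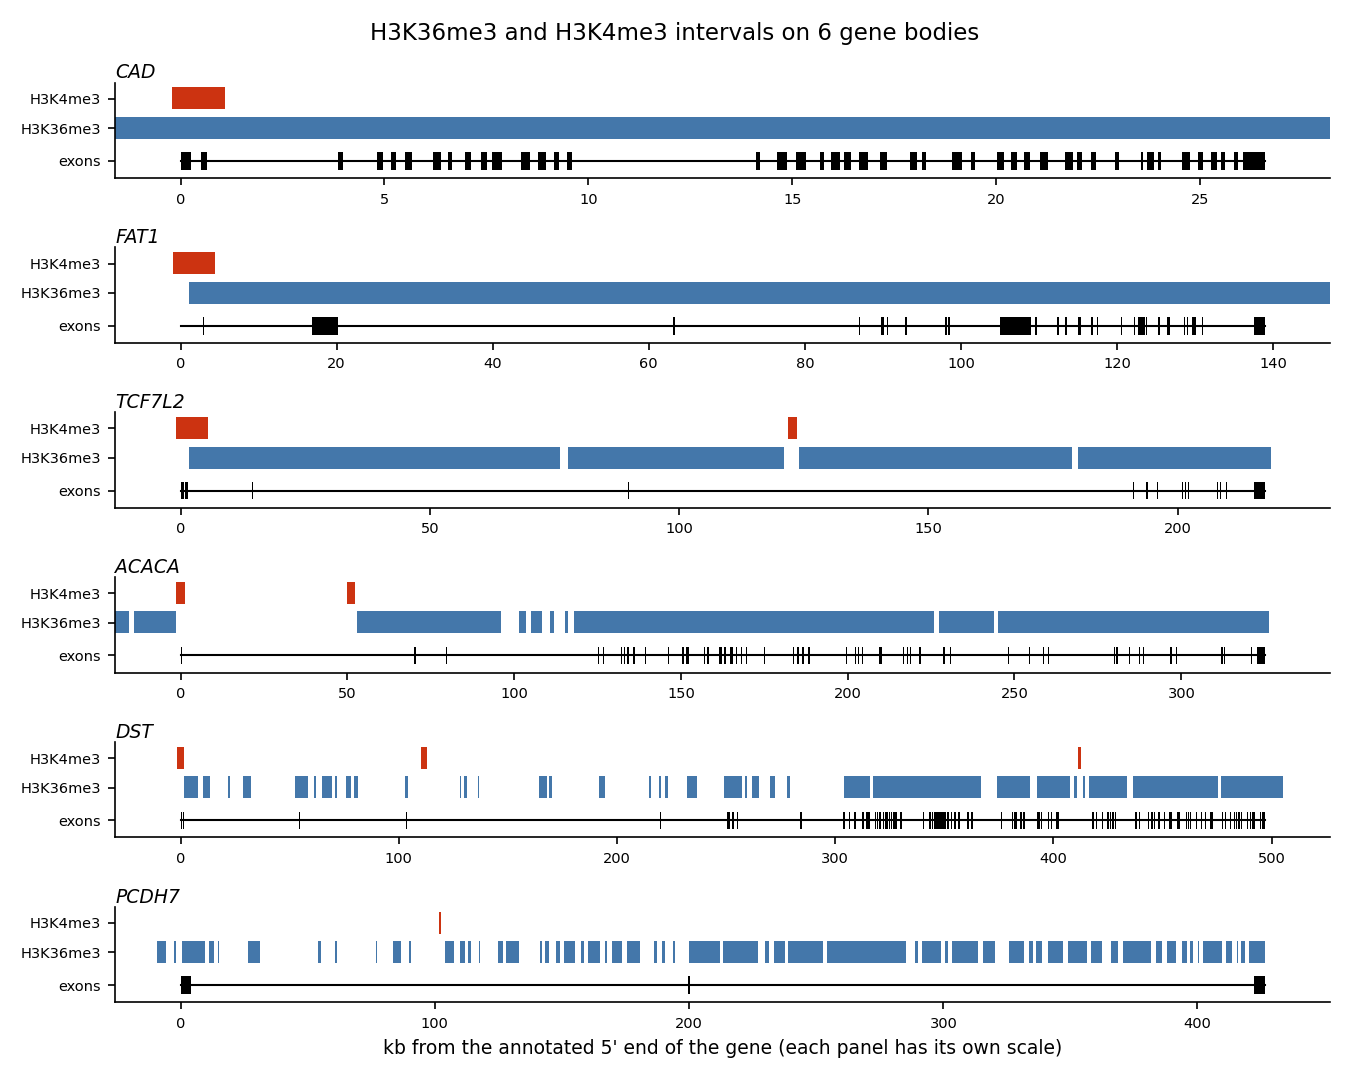
Exons of the canonical transcript (black), H3K36me3 intervals (blue) and H3K4me3 intervals (red) on 6 gene bodies, each drawn to its own scale in kb from the annotated 5′ end. CAD and FAT1 are filled by a single interval, ACACA is uncovered up to 52.8 kb, and the intervals of DST and PCDH7 are separate blocks (35 and 56).

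After these maps had been seen, cover was counted around H3K4me3 intervals that lay inside covered bodies. TCF7L2 meets the limits given next, whereas ACACA overlaps C17orf78 and was left out. In 1726 genes of at least 20 kb covered over at least 50% and overlapping no other coding gene, 124 H3K4me3 intervals lay more than 10 kb from both ends of the body. H3K36me3 covered the centre of 21 of them (16.9%, 95% Wilson interval 11.4 to 24.5%). It covered the base 3000 bp before the centre in 46 (37.1%, 29.1 to 45.9%) and the base 3000 bp after it in 91 (73.4%, 65.0 to 80.4%). These genes were chosen for high cover. In all 5128 genes covered over at least 50%, mean cover was 53.0% in the 5′ part of the body, 86.7% in the middle part and 87.5% in the 3′ part.

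By covered length, ENSG00000239920 came seventh with 204 kb in 12 intervals, 48.2% of an annotated body of 424 kb on chromosome 11, and 2 further models over part of the same sequence share 8 or 9 of these intervals. The 5 widest lay between chr11:5313769 and chr11:5526635, the widest measuring 60249 bp with a fold enrichment of 4.38. No H3K4me3 interval lay at the canonical TSS of ENSG00000239920. Olfactory receptor genes lie inside this model. OR51B5 was covered over 88.8% of an annotated body of 202209 bp, and OR51B4, OR51B2, OR51B6, OR51M1, OR51Q1, OR51I1, OR51I2 and OR52D1 over 100%, all without H3K4me3 at the TSS, whereas OR52H1 and OR52B6 in the same span had no cover. The bodies cannot be told apart from the long models around them. Of all 414 olfactory receptor genes, 11 had an interval (2.66%, against 56.3% of all coding genes) and 9 reached 50% (2.17%, against 25.4%).

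Fold enrichment gave a different set of names. Among bodies of at least 20 kb covered over at least 50%, PABPC1, the poly(A)-binding protein gene, had the highest mean fold enrichment (7.42), followed by the mitochondrial chaperone gene HSPD1 (6.82), ITPRID2 (6.58), the cytolinker gene PLEC (6.44) and HNRNPA2B1 (6.28). CSNK1D (6.15) and SLC16A3 (6.11) overlap and share an interval. HSPD1 overlaps HSPE1, HSPE1-MOB4 and MOB4, and HNRNPA2B1 overlaps CBX3 and NFE2L3. RBM39, a splicing factor gene, had 6.004, RSRC2 5.995 and PKM, the pyruvate kinase gene of glycolysis, 5.85. The median of all genes covered over at least 50% was 3.64.

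At the other end, the 10 longest coding genes held no interval. They were RBFOX1, CNTNAP2, PTPRD, DMD, DLG2, CSMD1, MACROD2, EYS, LRP1B and CTNNA3, with bodies between 1851 and 2474 kb, and most are known for expression in neurons or muscle. DLG2, MACROD2 and LRP1B nevertheless had an H3K4me3 interval at the TSS, as did FHIT, another of the longest genes with H3K4me3 and no H3K36me3 interval. Of all 8816 genes with no H3K36me3 interval, 2283 had H3K4me3 at the TSS (25.9%, 95% Wilson interval 24.99 to 26.8%).

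Of the 12428 genes with H3K4me3 at the TSS, 10145 had an H3K36me3 interval (81.6%, 95% Wilson interval 80.9 to 82.3%). Without it, 1201 of 7734 did (15.5%, 14.7 to 16.4%). When genes overlapping another coding gene were left out, the second share was 7.72%. Past a q-value of 1e-3 and a fold enrichment of 2 the shares were 37.02% and 5.79%. Cover of at least 50% was reached by 39.2% (38.4 to 40.1%) and 3.28% (2.91 to 3.71%) of the 2 classes. From genes with no cover to genes covered over at least 50%, the share with H3K4me3 at the TSS went from 25.9 to 95.05%. That with H3K9Ac went from 30.0 to 95.9%. The share with CTCF was 16.5% with no cover, 36.1% under 10%, 41.1% at 10 to 50% and 39.6% at 50% or more.

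Covered genes without any H3K4me3 at an annotated start were few. Of 3122 genes of at least 20 kb with no such interval, 41 were covered over at least 50%. The 5 with the highest cover were LXN, ENSG00000282034, NBPF20, NBPF8 and ENSG00000261732. LXN overlaps GFM1. ENSG00000282034 (96.7%) overlaps SRCAP and TMEM265, and ENSG00000261732 (93.9%) overlaps CRAMP1 and JPT2. NBPF20 (96.5%) and NBPF8 (94.98%) belong to a family of near-identical copies, among which reads cannot be placed with certainty.

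H3K36me3 and H3K27me3 hardly met. The lists shared 0.0983 Mb, which is 0.0480% of the H3K36me3 length and 0.0443% of the H3K27me3 length. Of 920 genes with at least 50% of the body in H3K27me3 intervals, 22 had an H3K36me3 interval (2.39%, 95% Wilson interval 1.58 to 3.59%). From genes with no cover to genes covered over at least 50% by H3K36me3, the mean share of the body in H3K27me3 intervals went from 12.05 to 0.02915%. H3K4me3 intervals shared 1.057 Mb with H3K36me3, H3K9Ac intervals 10.9 Mb and H3K4me1 intervals 13.5 Mb.

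The intervals of highest fold enrichment differed from the rest in this respect. Of the 4001 intervals of lowest fold enrichment, 37 touched an H3K4me3 interval (0.925%, 95% Wilson interval 0.672 to 1.272%), against 1295 of the 4001 highest (32.4%, 30.9 to 33.8%). Of the 90 intervals past a q-value of 1e-10 and a fold enrichment of 5, 71 touched one (78.9%, 69.4 to 86.0%). Median widths were 925 bp, 10972 bp and 6494 bp in these 3 sets, and the part of width in this difference was not tested.

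Gene lists by function were compared with the values over all coding genes, whose median cover was 4.83% and of which 25.4% were covered over at least 50%. Housekeeping lists lay far above these values. Of 34 splicing factor genes 33 reached 50% (median 89.6%), led by DHX15 (97.4%), PRPF6 (96.8%), PRPF8 (96.6%) and EFTUD2 (96.6%). The exception was SRSF5, with 8.66% of an annotated body of 45106 bp. All 20 cytoplasmic tRNA synthetase genes reached 50% (median 85.3%), led by LARS1 (96.2%) and RARS1 (95.8%). Proteasome genes did so in 27 of 31 (median 85.5%), with PSMB2 at 98.0% and PSMA1 at 9.90%. Genes of the replication machinery did so in 27 of 33, with MCM2 at 97.6%, MCM6 at 96.2% and POLE at 96.1% at the top and RPA3 at 1.96% at the bottom.

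Of 86 ribosomal protein genes, 71 reached 50% (median 83.0%) and 83 had an interval. RPL10A had 100% and RPL37 95.4%, with fold enrichments of 3.85 and 5.91. The 3 without an interval were RPL39L, RPL10L and RPL3L, paralogs with tissue-restricted expression, and none of them had H3K4me3 at the TSS. Many ribosomal protein genes have processed pseudogene copies, so the placement of reads from their exons is less certain. Of 38 complex I genes, which encode the first enzyme of the respiratory chain, 28 reached 50% (median 66.03%), with NDUFS6 at 91.6% and NDUFA12 at 6.83%. RNA polymerase II and elongation factor genes reached 50% in 25 of 30, with SUPT6H at 96.2%, SUPT16H at 95.2% and POLR2A at 94.2%, and POLR2I lowest at 5.65%.

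The enzymes and readers of H3K36 methylation were less uniform. All 26 had H3K4me3 at the TSS, and 11 reached 50% (42.3%, against 39.2% of all genes with H3K4me3 at the TSS). Their median cover was 42.4%, against 35.2% in all genes with H3K4me3 at the TSS. SETD2, which places the trimethyl mark, had 48.3% of its body covered. Of the dimethyl writers, NSD2 had 71.6%, NSD1 66.1%, NSD3 51.0% and ASH1L 31.9%. The reader genes BRPF1 (91.7%) and PSIP1 (88.5%) and the demethylase gene KDM4A (90.5%) were at the top. Of the DNA methyltransferase genes whose products bind the mark, DNMT3B had 69.9% and DNMT3A 5.23%. KDM4C, a demethylase gene of 454786 bp, had 0.511%, and RIOX1 had no interval.

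**Figure D5:**
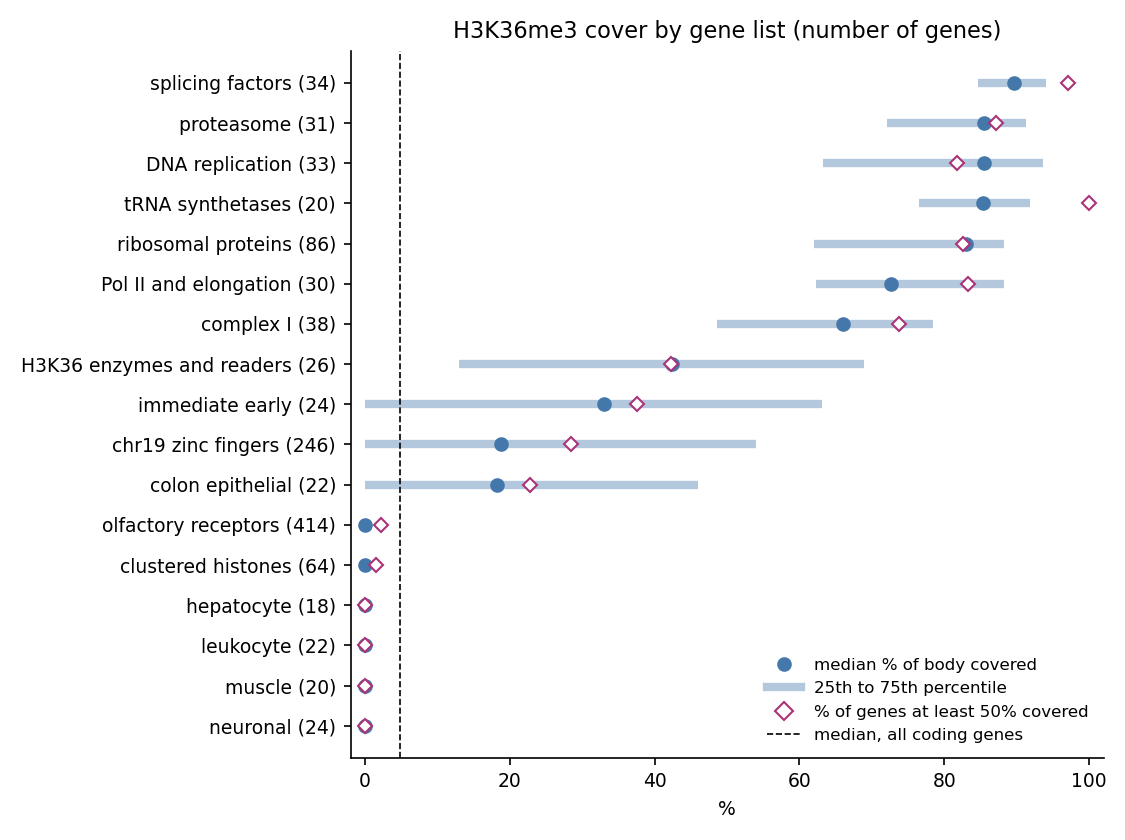
Median percent of the body covered (filled circles, bars from the 25th to the 75th percentile) and percent of genes covered over at least 50% (open diamonds) for 17 gene lists, with the number of genes in parentheses; the dashed line is the median of all coding genes (4.83%). Splicing factors lie highest at a median of 89.6%, and the lists of other cell types have a median of 0%.

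Zinc finger genes of chromosome 19 gave a broad spread: 149 of 246 had an interval (60.6%, against 56.3% of all coding genes), 70 reached 50% (28.5%, against 25.4%), and the median was 18.8%. ZNF317 (94.8%), ZNF544 (92.7%) and ZNF587B (90.2%) were highest. Their tandem copies are similar in sequence, which makes the placement of reads less certain. Of 24 immediate early genes, which are short and induced within minutes of a stimulus, 23 had H3K4me3 at the TSS. An interval was present in 17 (70.8%, against 56.3% of all coding genes and 81.6% of those with H3K4me3 at the TSS). Cover of 50% was reached by 9 (37.5%, against 25.4% and 39.2%). FOSL1 had 79.8%, KLF2 77.8%, IER5 74.2% and MYC 70.4%, whereas JUNB, JUND, FOSB and NR4A3 had H3K4me3 and no interval.

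Clustered histone genes stood out among the marked promoters. Of 64 such genes, 45 had H3K4me3 at the TSS. An H3K36me3 interval was present in 6 (9.375%, against 56.3% of all coding genes and 81.6% of those with H3K4me3 at the TSS). Cover of 50% was reached by 1 (1.56%, against 25.4% and 39.2%), H3C6, with 74.4% of 3275 bp. Clustered histone genes are intronless and have a median body of 509 bp. Short genes with a single exon, histone genes included, were covered less often. Of 269 single-exon genes under 10 kb with H3K4me3 at the TSS, 89 had an interval (33.1%, 95% Wilson interval 27.7 to 38.9%), against 1573 of 2041 with more exons (77.1%, 75.2 to 78.8%). Their median bodies were 2343 and 5858 bp, so length differs between these classes too.

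Marker lists were read against the label of a colon-derived line. Of 22 colon epithelial genes, 16 had H3K4me3 at the TSS, and 15 had an H3K36me3 interval (68.2%, against 56.3% of all coding genes). Cover of 50% was reached by 5 (22.7%, against 25.4%), namely ESRP1 (88.3%), KRT19 (76.7%), KRT18 (71.2%), DSP (69.3%) and ELF3 (60.6%). CDX2, the intestinal transcription factor, had 47.8% and EPCAM 40.4%. KRT20, LGALS4, CDH17, CDX1 and GPA33, markers of differentiated enterocytes or colonocytes, had neither mark. No gene of the neuronal, muscle, leukocyte and hepatocyte lists reached 50%. In these lists 7 of 24, 4 of 20, 1 of 22 and 1 of 18 genes had an interval, led by SYT1 with 41 intervals over 18.6% of 588016 bp, and H3K4me3 was at the TSS of 5, 0, 0 and 0.

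Human loci assayed elsewhere in the study differed widely in this HCT116 library. The paper assayed POU5F1 and TBX3 in Elf1 human embryonic stem cells, and used L32 (RPL32) as a reference transcript. RPL32 was covered over 92.7% of 7.10 kb (fold enrichment 5.45) and UBE2B, a ubiquitin-conjugating enzyme gene, over 87.7% of 20.9 kb (3.598), beginning 2584 bp from the start. TBX3, a developmental transcription factor gene, had 3 intervals over 51.7% of 13.9 kb. In EGR1, an immediate early gene of 3825 bp, 1 interval began 1569 bp from the start and covered 41.1%. POU5F1, the pluripotency factor gene, and NR4A3 had no interval.

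Outside coding genes, 362 of 4396 lncRNA genes of at least 10 kb had an interval (8.23%, 95% Wilson interval 7.46 to 9.08%) and 54 reached 50%. Where H3K4me3 lay at the TSS the share with an interval was 32.1% (28.6 to 35.8%, 203 of 633). The highest covers were those of ENSG00000290674 (100%), SNHG17, a snoRNA host gene (97.1%), ENSG00000291220 (95.7%), ENSG00000290890 (93.8%) and ENSG00000291124 (90.7%). Among small RNA genes, 325 of 775 snoRNA genes inside coding genes were touched by an interval (41.9%, 38.5 to 45.4%), against 42 of 683 outside them (6.15%, 4.58 to 8.21%).

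Between chromosomes, the percent of coding body covered was highest on chromosomes 19 (27.9%), 17 (26.8%) and 22 (23.1%) and lowest among the autosomes on chromosome 18 (10.5%). Median body lengths were 15899, 16907 and 23396.5 bp on the first 3 and 53975 bp on chromosome 18. On chromosome X 4.91% was covered, and 64 of 869 genes (7.36%, 95% Wilson interval 5.81 to 9.30%) reached 50%, where the median body was 17095 bp. H3K4me3 was at the TSS of 46.6% of the genes on chromosome X, against 60.3% on chromosome 19 and 66.2% on chromosome 18.

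GC content varied little with cover. It was 43.3% inside the intervals and 40.9% in the genome. The median body was at 45.7% in genes covered over at least 50% and at 45.8% in genes with no interval. In 3574 genes of at least 20 kb with cover between 20 and 80%, the median GC content was 42.1% in the covered and 43.5% in the uncovered part, and the covered part was the higher in 1142 genes (32.0%, 95% Wilson interval 30.4 to 33.5%).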

How the data were processed

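The measurement was PIXUL-ChIP-seq of HCT116 cells, with 1 library per antibody. Per the labels, reads were 75 bases long, single- or paired-end, with molecular identifiers for the removal of PCR duplicates. The authors mapped them to hg19 (BWA 0.7.12) and ran the broad mode of MACS2 on each library (the submitters' processing notes name MACS 1.4.2, SAMtools 0.1.19 and bcl2fastq 2.20.0.442). The deposited lists give each interval a fold enrichment over background, a −log10 p and a −log10 q, and a score, which the authors' caller derives from the −log10 q. They hold no counts, so the depth is unknown.

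All 40010 H3K36me3 intervals were used. The methods' limits for this mark (q-value below 1e-10, fold enrichment above 5) leave 90, and served as an alternative. Bodies, transcripts and lncRNAs came from GENCODE 44 lifted to GRCh37. A TSS was marked where a list had an interval within 1000 bp. Overlaps were computed with pandas 2.3.3 and numpy 2.4.6, checked with bedtools 2.31.1 (the same covered bases in 20162 of 20162 bodies) and tested on simulated data (200 of 200 bodies recovered). Wilson bounds used scipy 1.17.1. With 1 library, no test was made.

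Genes were named by rule: the 10 bodies of at least 20 kb with the highest cover, the 10 largest covered lengths, the 10 highest mean fold enrichments, the 10 longest bodies, the 5 longest with H3K4me3 and no H3K36me3, the 5 highest covers without H3K4me3, the 5 highest lncRNA covers, loci assayed in the study, and the extremes of 17 gene lists. Further list members were named after their values were seen. The members and lists were chosen with earlier results of these data known. Some genes that the rule selects are not reported here. Alternatives changed the interval limits, joined intervals, used canonical spans, left out overlapping or short genes, or changed the TSS window and list.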

Additional observations from a re-analysis of the deposited data

How the results depend on the processing

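Of 73 alternative values, 40 stayed within the bounds set for a change, 33 moved and 0 reversed. Past limits of q 1e-3 and fold 2, 5049 genes had an interval and 2663 were covered over at least 50%. The share with an interval was then 37.02% with and 5.79% without H3K4me3 at the TSS, the median cover was 0% at 10 to 50 kb and 0% at 50 to 200 kb, and the ratio of exons covered after to before the exon was 1.78. With the limits of q 1e-10 and fold 5, these genes numbered 100 and 56, the shares were 0.756% and 0.0776%, both medians were 0%, 85.3% of interval length lay in coding bodies, and the exon to intron ratio was 7.17. Joining intervals within 5000 bp gave 92.7% of length in coding bodies and medians of 30.3 and 13.8%. Canonical spans gave 91.4% of length, 14.0% of genes without H3K4me3 and a median of 24.7% at 10 to 50 kb. Genes overlapping no other coding gene gave 6425 and 3018 genes, 61.2% of length, shares of 78.8 and 7.72%, and medians of 11.2 and 6.32%. Bodies of at least 10 kb gave 90.7% of length and shares of 84.0 and 18.7%. With H3K4me3 limited to q 1e-10 and fold 5, the share with H3K4me3 was 83.9%. Introns of at least 20 kb gave an exon ratio of 8.82. The alternatives for the exon ratio were chosen after seeing the data. The causes of these changes were not tested. No paired analysis was possible because each antibody has 1 library. The list holds weak intervals, no count and no replicate, so an uncovered body may have been below the reach of this library.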
